A study of Macaca mulatta with 18 samples.

Results

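Expression in the prefrontal cortex (PFC) was compared between rhesus monkeys (Macaca mulatta) of Chinese origin and of Indian origin. The genes described are those of the PFC table whose comparison the authors' software completed (status OK) and that had an FPKM of 1 or more in at least 1 origin, which gave 15227 of 30246 genes. FPKM is a read number corrected for transcript length and for library size. The Chinese-origin group held 3 animals of 10.5, 11 and 11.5 years and the Indian-origin group 3 animals of 7.5, 15 and 16 years, none of them treated, all on the same stock diet with fruits and vegetables. The same 6 animals also gave the cerebellum (CER) and the striatum (STR), 18 libraries in all, and the PFC libraries were sequenced in 1 lane. Indian-origin animals were born at the primate center and Chinese-origin animals came there as young adults, so that origin and rearing cannot be told apart. The authors pooled the animals of an origin into 1 FPKM per gene, so a difference between origins has no replicate check here, and no SD between animals can be computed. The p-values that the table also holds were not used. The tables give no read numbers, so how deeply each library was read is unknown from them.

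The PFC lies at the front of the cerebral cortex and serves planning, working memory and the control of behavior. Its RNA comes from layered excitatory neurons, inhibitory interneurons, astrocytes, oligodendrocytes, microglia and blood vessels. Rhesus monkeys from China and from India are genetically distinct populations of 1 species, and the study asked whether genes of carotenoid uptake and metabolism, and genes with known variants between the populations, differ in expression between them.

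The sum of 6 cortical markers, among them SLC17A7 and TBR1, was 542.2 FPKM in Chinese-origin and 465.3 FPKM in Indian-origin PFC. The cerebellar markers, such as GABRA6 and CBLN3, summed to 6.60 FPKM in Chinese-origin and 4.48 FPKM in Indian-origin PFC, whereas in CER they reached 1516 FPKM in Chinese-origin and 1501 FPKM in Indian-origin animals. The striatal markers, such as DRD1 and PPP1R1B, summed to 149.1 FPKM in Chinese-origin and 135.7 FPKM in Indian-origin PFC, against 1693 FPKM in Chinese-origin and 1514 FPKM in Indian-origin STR. Both PFC pools therefore carried the labelled tissue's markers. In STR the cortical markers summed to 83.6 FPKM in Chinese-origin and 17.8 FPKM in Indian-origin animals, so the STR pools differed in them. In CER they summed to 237.2 FPKM in Chinese-origin and 210.2 FPKM in Indian-origin animals.

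Most genes were listed slightly higher in Chinese-origin PFC. Of the 15227 genes, 14426 were above 0 in both origins and had a ratio, and the median log2 ratio of Chinese over Indian FPKM was 0.20, a 1.15-fold shift shared by the table. In 85.0% of these genes the log2 ratio was above 0. Each gene is therefore given relative to this shift, as its log2 ratio minus the median, called the centred log2 ratio. The quartiles of the centred values were -0.11 and 0.11, and their 5th and 95th percentiles -0.50 and 0.47. A gene counted as different when it stood 1.5-fold or more (0.58 on the log2 scale) from the median. By that measure 497 genes (3.45%) were higher and 579 genes (4.01%) lower in Chinese-origin PFC, together 7.46%. Without subtraction of the median, 926 were higher and 397 lower, so the split between the directions rests on the centring. Near the lower limit, 179 kept genes had a highest FPKM between 1 and 1.1, and 212 genes with a completed comparison fell just outside, between 0.9 and 1.

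The share of genes past 1.5-fold depended on the kind of gene and on its level. Among 11432 genes with a symbol that were not small RNAs, 234 (2.05%) were higher and 231 (2.02%) lower in Chinese-origin PFC, together 4.07%. Among 705 small RNAs, which include snoRNAs, spliceosomal RNAs and microRNA precursors, 139 (19.7%) were higher and 184 (26.1%) lower, together 45.8%. Among 2289 genes without a symbol, 124 (5.42%) were higher and 164 (7.16%) lower, together 12.6%. Within the named genes other than small RNAs, 20.02% of those with a mean under 2 FPKM were past the fold, 7.94% at 2 to 5 FPKM, 2.47% at 5 to 10 FPKM and 1.94% at 10 to 20 FPKM. Of those at 20 to 50 FPKM only 0.523% were past it, and of those at 100 FPKM or more 0.539%. Differences of this size were thus concentrated in genes of low level and in short transcripts.

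**Figure D1:**
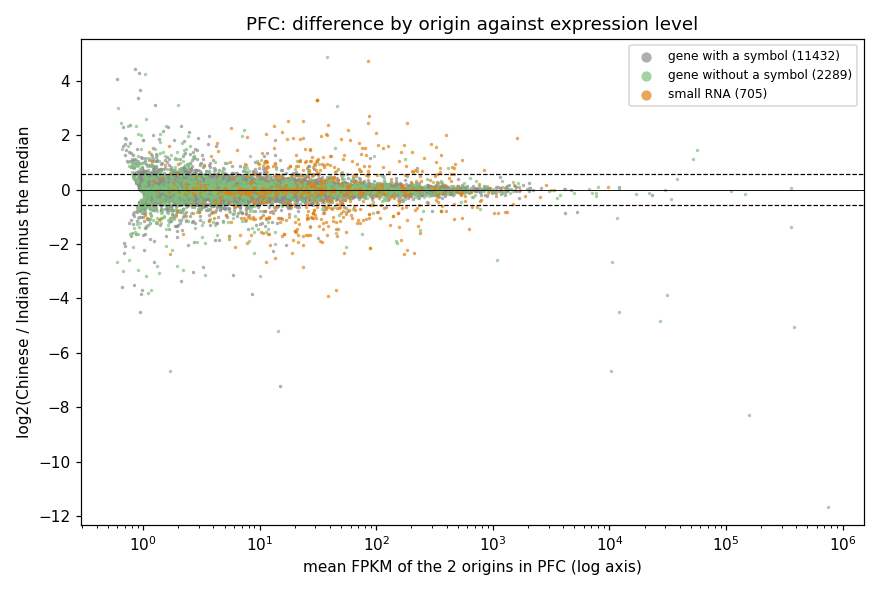
Centred log2 ratio of Chinese over Indian origin in PFC (vertical axis) against the mean FPKM of both origins (horizontal axis, log scale), 1 point per gene, colored by kind of gene. Dashed lines mark 1.5-fold. The gray points of named genes narrow from left to right, while the orange small RNAs stay wide at every level. The green points at the lower right are genes without a symbol, the highest at 1497770 FPKM in Indian origin.

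Chromosomes did not stand far apart: the median centred log2 ratio of named genes ran from -0.03 on chromosome 19 to 0.05 on chromosome 5, with 0.00 on X.

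Small RNAs filled most of the extreme places. Among the 25 highest named genes with 5 FPKM or more, 24 were small RNAs, and among the 25 lowest, 19 were. Of 1332 small RNAs kept, 627 (47.1%) were listed at 0 in 1 of the origins, compared with 12 of 11444 other named genes. The SNORD115 copies, brain snoRNAs of the imprinted Prader-Willi region, stood at both ends. One copy had 164.4 FPKM in Chinese-origin and 5.41 FPKM in Indian-origin PFC, and another had 5.48 FPKM in Chinese-origin and 72.1 FPKM in Indian-origin PFC. Of 53 SNORD115 copies kept, 33 had a ratio, of which 5 were higher and 15 lower. The other 20 were listed at 0 in 1 origin, 5 in Chinese and 15 in Indian, so that counted together neither direction prevailed. Their summed level was 6727 FPKM in Chinese-origin and 6982 FPKM in Indian-origin PFC. Of 26 SNORD116 copies of the same region with a ratio, 8 were higher and 5 lower. A read of 50 bases cannot separate identical copies, and the FPKM of a transcript near that length rests on few possible read positions, so values of single small RNAs are uncertain. The genes named from here on leave them out, a choice made after this was seen.

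**Figure D2:**
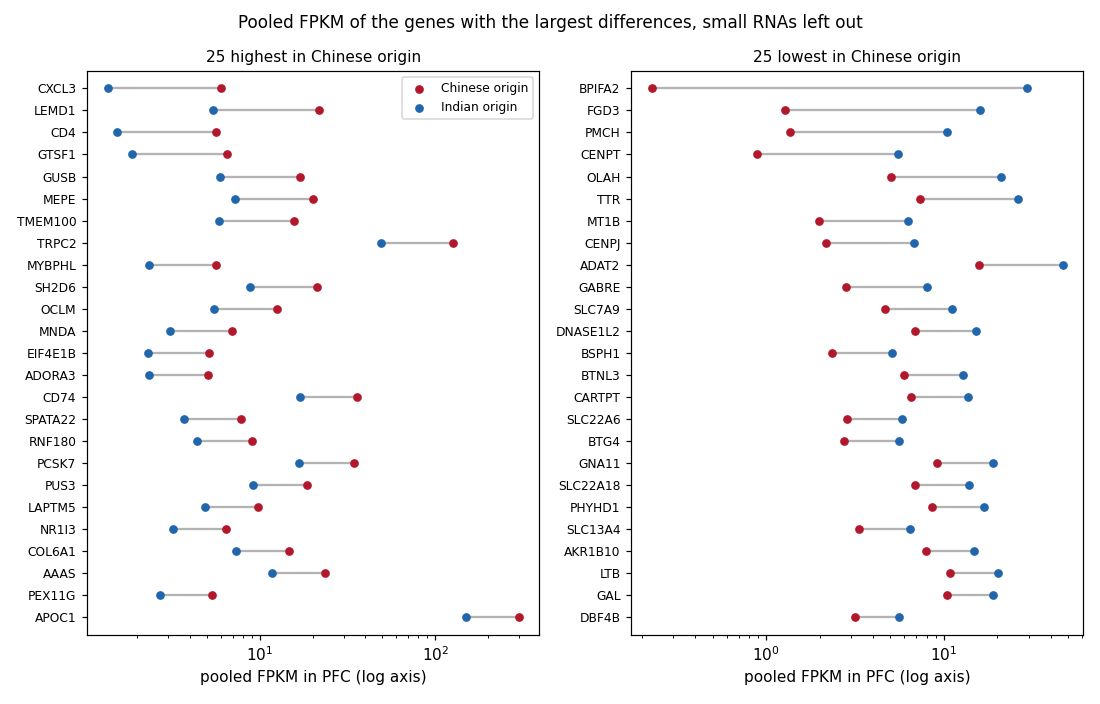
Pooled FPKM in PFC (log axis) of the 25 highest and the 25 lowest named genes by centred log2 ratio, small RNAs left out, each with 5 FPKM or more in at least 1 origin. Red points are Chinese origin and blue points Indian origin. The lines join the origins, and the longest belongs to BPIFA2, with 0.228 FPKM in Chinese origin and 29.4 FPKM in Indian origin.

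The 25 genes highest in Chinese-origin PFC had centred log2 ratios from 0.79 to 1.95. Those known from immune cells are given first. CXCL3, a chemokine that attracts neutrophils, had 5.98 FPKM in Chinese-origin and 1.35 FPKM in Indian-origin PFC, a centred log2 ratio of 1.95, but stood at -1.12 in STR. CD4, the co-receptor of helper T cells that macrophages also carry, had 5.64 FPKM in Chinese-origin and 1.53 FPKM in Indian-origin PFC, a centred log2 ratio of 1.69. CD74, the invariant chain of MHC class II, had 35.8 FPKM in Chinese-origin and 17.0 FPKM in Indian-origin PFC, a centred log2 ratio of 0.88. MNDA, LAPTM5 and ADORA3 followed at 0.98, 0.82 and 0.91. MNDA, a nuclear protein of myeloid cells, had 6.94 FPKM in Chinese-origin and 3.08 FPKM in Indian-origin PFC. LAPTM5, a lysosomal protein of blood-derived cells, had 9.79 FPKM in Chinese-origin and 4.84 FPKM in Indian-origin PFC. ADORA3, the A3 adenosine receptor, had 5.03 FPKM in Chinese-origin and 2.33 FPKM in Indian-origin PFC, at a locus that the table shares among 3 genes.

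The other genes of the group had varied roles. LEMD1, a LEM-domain protein, had 21.8 FPKM in Chinese-origin and 5.37 FPKM in Indian-origin PFC. GTSF1, which acts in the silencing of transposons in germ cells, had 6.52 FPKM in Chinese-origin and 1.86 FPKM in Indian-origin PFC. GUSB, the lysosomal beta-glucuronidase often used as a reference gene in PCR, had 16.9 FPKM in Chinese-origin and 5.90 FPKM in Indian-origin PFC, a centred log2 ratio of 1.33, at a locus shared by 2 genes. MEPE, a phosphoglycoprotein of bone matrix, and TMEM100, a membrane protein of blood vessels, followed with centred log2 ratios of 1.28 and 1.22. APOC1, an apolipoprotein, was the most abundant of the 25, with 299 FPKM in Chinese-origin and 150.7 FPKM in Indian-origin PFC. COL6A1, a chain of collagen VI, had 14.6 FPKM in Chinese-origin and 7.35 FPKM in Indian-origin PFC. TRPC2 was read from a very short feature (mmul1, chr14:69916305-69916391), to which the caution on short transcripts applies, with 126.5 FPKM in Chinese-origin and 49.4 FPKM in Indian-origin PFC.

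The 25 genes lowest in Chinese-origin PFC had centred log2 ratios from -7.21 to -1.03. BPIFA2, a secreted protein of salivary glands, had 0.228 FPKM in Chinese-origin and 29.4 FPKM in Indian-origin PFC, and was listed at 0 for both origins in CER and STR. FGD3, an exchange factor for the small GTPase Cdc42, had 1.27 FPKM in Chinese-origin and 15.9 FPKM in Indian-origin PFC, a centred log2 ratio of -3.84. OLAH, an enzyme that releases fatty acids from fatty acid synthase, had 5.05 FPKM in Chinese-origin and 20.9 FPKM in Indian-origin PFC, a centred log2 ratio of -2.24. Genes of cell division were among them at low levels. CENPT, a protein of the kinetochore, had 0.894 FPKM in Chinese-origin and 5.56 FPKM in Indian-origin PFC. CENPJ, which builds centrioles, had 2.18 FPKM in Chinese-origin and 6.79 FPKM in Indian-origin PFC. ADAT2, a subunit of the deaminase that edits tRNA, had 15.8 FPKM in Chinese-origin and 46.8 FPKM in Indian-origin PFC.

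PMCH, the precursor of melanin-concentrating hormone, had 1.36 FPKM in Chinese-origin and 10.4 FPKM in Indian-origin PFC, a centred log2 ratio of -3.13. CARTPT, the precursor of the CART peptide, had 6.54 FPKM in Chinese-origin and 13.6 FPKM in Indian-origin PFC. GAL, the precursor of galanin, had 10.4 FPKM in Chinese-origin and 18.8 FPKM in Indian-origin PFC. All 3 are neuropeptides with centred log2 ratios below -1. TTR, the thyroid hormone and retinol carrier made by the choroid plexus, had 7.35 FPKM in Chinese-origin and 26.3 FPKM in Indian-origin PFC, a centred log2 ratio of -2.03. GABRE, the epsilon subunit of the GABA-A receptor, had 2.80 FPKM in Chinese-origin and 8.02 FPKM in Indian-origin PFC, at a locus shared by 3 genes. The membrane transporters SLC7A9, SLC22A6, SLC22A18 and SLC13A4 had centred log2 ratios of -1.46, -1.23, -1.21 and -1.15. LTB, lymphotoxin beta, was lower at -1.10, with 10.9 FPKM in Chinese-origin and 20.3 FPKM in Indian-origin PFC. In each group of 25, 7 genes lay at a locus that the table shares with another gene, so their reads may be divided between overlapping genes.

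The same genes were then read in CER and STR, each centred on its own region's median, 0.10 in CER and 0.31 in STR. The 3 tables come from the same animals, so they are not independent. The STR pools also differed in cortical markers, as given above, and the part of this in the STR ratios was not tested. Of the 25 genes highest in Chinese-origin PFC, 21 had a completed comparison and a ratio in CER and 22 in STR. Of these, 10 were also 1.5-fold or more higher in CER, where 2.63% of all named genes kept in PFC were, and 11 in STR, where 5.11% were. None was lower past 1.5-fold in CER, and CXCL3 and TRPC2 were in STR. Of the 25 lowest, 22 could be read in CER and 24 in STR. Lower past 1.5-fold were 18 in CER, against 2.84% of all, and 18 in STR, against 1.87%. The exceptions in the opposite direction were PMCH in CER and GAL in STR. FGD3 was nearly as far down in the other regions, with centred log2 ratios of -3.11 in CER and -3.32 in STR. OLAH had -2.44 in CER and -2.51 in STR, and CENPT -2.67 in CER and -2.62 in STR. CD4 had 0.97 in CER and 1.53 in STR, GTSF1 0.96 in CER and 1.19 in STR, and GUSB 1.77 in CER and 1.58 in STR. These genes were thus past 1.5-fold in all 3 regions.

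Other genes differed in PFC and not in the same way elsewhere. PMCH was lower in Chinese-origin STR, at -2.72, but higher in CER, at 1.06. GAL stood at -0.51 in CER and, in the opposite direction to PFC, at 1.46 in STR, where it had 22.2 FPKM in Chinese-origin and 6.51 FPKM in Indian-origin animals. CXCL3 was listed at 0 in Chinese-origin and 0.437 FPKM in Indian-origin CER. TRPC2 stood at -0.47 in CER and -0.65 in STR. LEMD1 was higher in CER, at 0.81, and at -0.53 in STR. MEPE, at 1.28 in PFC, had -0.17 in STR, with 7.22 FPKM in Chinese-origin and 6.57 FPKM in Indian-origin animals. APOC1 was close to the median in both other regions, at 0.16 in CER and 0.04 in STR. Across the 10290 named genes with a completed comparison and a ratio in all 3 tables, 189 were higher in PFC, of which 56 were higher in all 3 regions. The lower genes numbered 194, of which 60 were lower in all 3. Of the whole 10290, 1.07% were higher in both CER and STR and 0.768% lower in both. In the opposite direction in CER or STR stood 13 of the higher and 13 of the lower genes. Whether a gene's difference varied between regions beyond error was not tested.

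**Figure D3:**
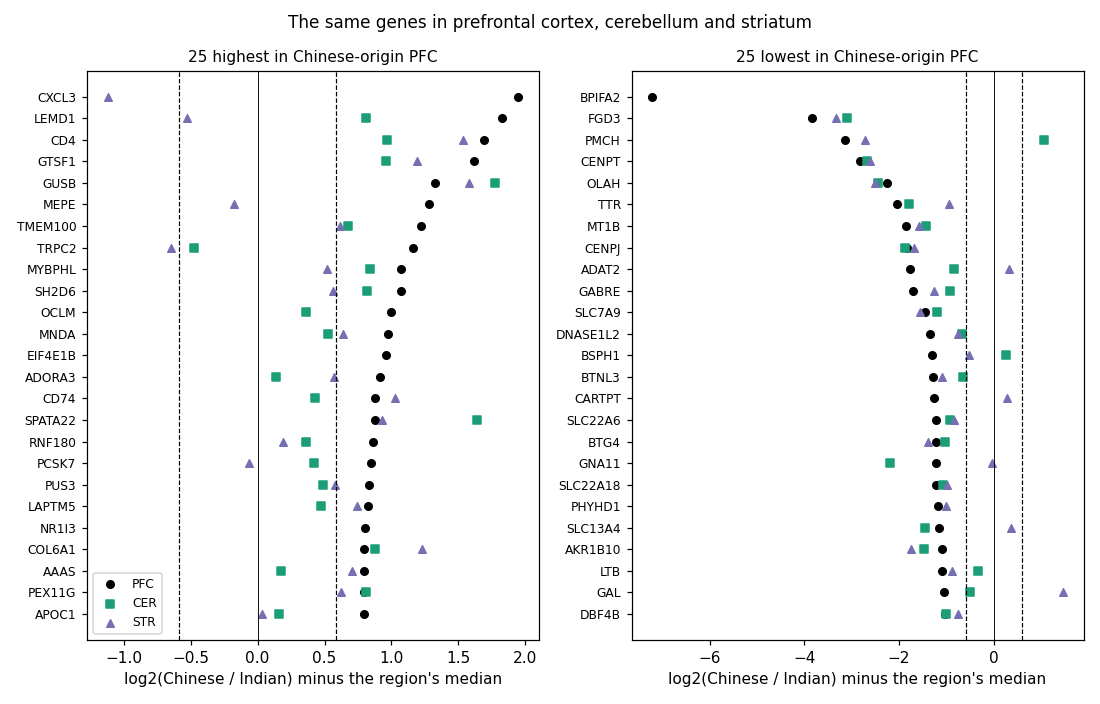
Centred log2 ratio of Chinese over Indian origin (horizontal axis) in PFC (black circles), CER (green squares) and STR (purple triangles) for the 25 highest and the 25 lowest genes of PFC, with a completed comparison in the region plotted. Dashed lines mark 1.5-fold. FGD3, CENPT and OLAH lie below -2 in all 3 regions, while PMCH and GAL lie on both sides of 0.

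Lists of genes for cell types and pathways were described by their counts and medians beside those of all 11432 named genes, whose median was 0.00, with 50.7% above the table's median. The lists together held 715 genes with a ratio, of which 23 (3.22%) were higher and 14 (1.96%) lower past 1.5-fold. Among all named genes other than small RNAs, the shares were 2.05% and 2.02%. Without subtraction of the median, 58 were higher and 11 lower, so calls just under 1.5-fold in the lists turn on the centring. The lists with the highest medians were those of MHC class II, blood-related cells, chemokines, immediate early genes, microglia and vessels. The blood-related lists, red blood cell and immunoglobulin, rested on only 3 kept genes each. Their medians were 0.11 and -0.04 in CER and 0.06 and -0.26 in STR.

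**Figure D4:**
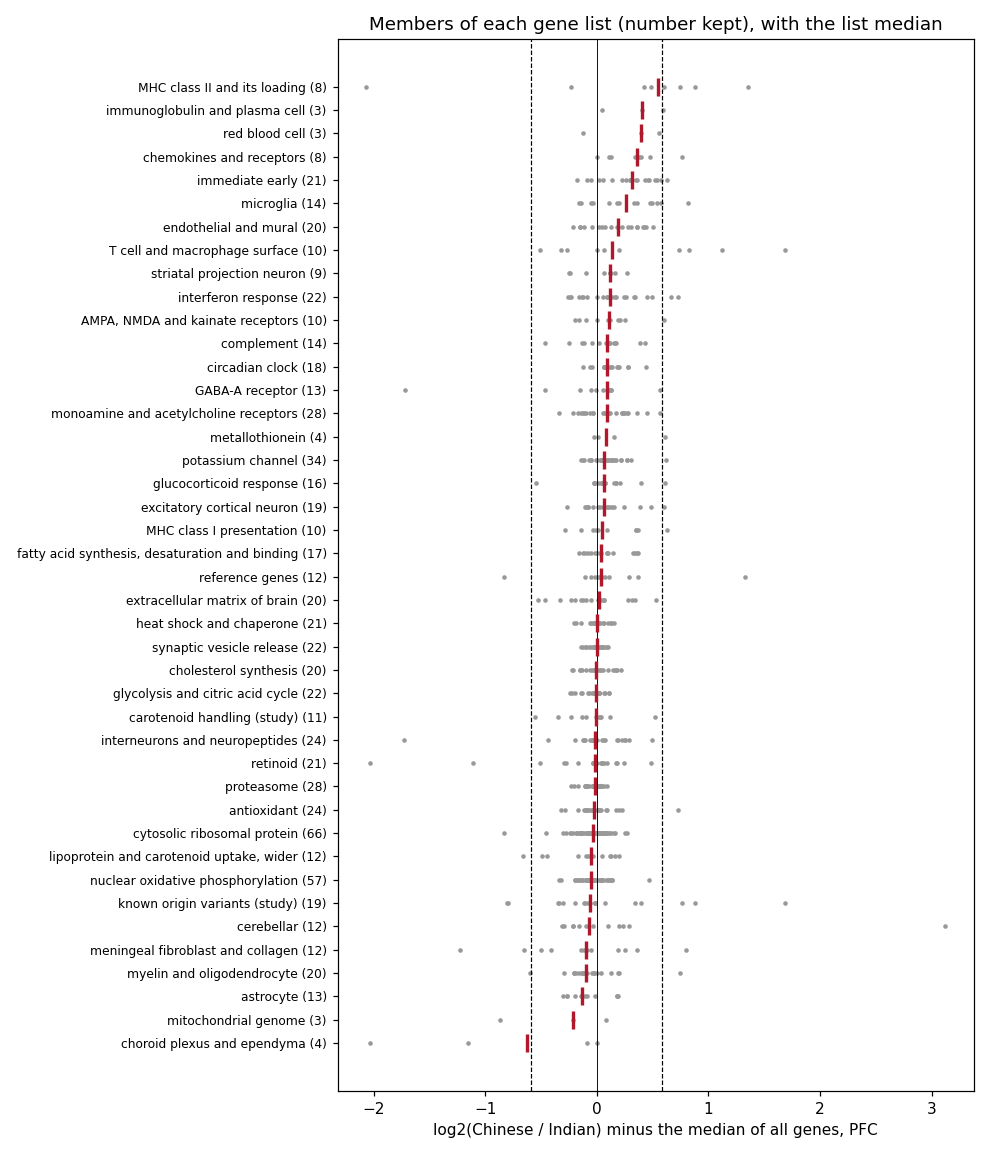
Centred log2 ratio in PFC of the kept members of each gene list (gray points), with the list median as a red bar and the number of members kept in brackets. Dashed lines mark 1.5-fold. The MHC class II list lies furthest right, at a median of 0.55, and the choroid plexus list furthest left, at -0.62.

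MHC class II molecules present peptides from outside the cell to helper T cells, and in brain are made mainly by microglia and macrophages. Of 8 genes kept, 4 were higher, 1 was lower and 3 were within 1.5-fold, and the median was 0.55. The shares among all named genes other than small RNAs were 2.05% higher and 2.02% lower. Besides CD74, the higher genes were HLA-DMA, a subunit of the peptide loading factor, with 3.37 FPKM in Chinese-origin and 1.15 FPKM in Indian-origin PFC, and MAMU-DPA1, with 7.34 FPKM in Chinese-origin and 4.21 FPKM in Indian-origin PFC. The third was a beta chain that the table calls MAMU-DQB1 and the reference names MAMU-DRB1, with 14.1 FPKM in Chinese-origin and 7.31 FPKM in Indian-origin PFC. MAMU-DPB1, the beta partner of MAMU-DPA1, had 21.0 FPKM in Chinese-origin and 13.6 FPKM in Indian-origin PFC, within 1.5-fold at 0.42. MAMU-DOA, a subunit of the factor that restrains HLA-DM, ran the other way at 0.302 FPKM in Chinese-origin and 1.103 FPKM in Indian-origin PFC. With a mean under 2 FPKM, as for MAMU-DOA, 20.02% of named genes were past the fold in either direction. At 2 to 5 FPKM, as for HLA-DMA, 7.94% were. MHC genes vary between monkeys and resemble each other, and the reads were aligned to 1 reference genome, so the levels of single MHC genes are uncertain. MAMU-DPA1 lay at a locus shared by 2 genes, and the beta chain called MAMU-DQB1 at a locus shared by 7. Of 10 genes of MHC class I presentation, 1 was higher, the immunoproteasome subunit PSMB8 at 0.63. PSMB8 had 2.49 FPKM in Chinese-origin and 1.40 FPKM in Indian-origin PFC, also a mean under 2 FPKM. B2M, the light chain of class I, had 604.2 FPKM in Chinese-origin and 407.7 FPKM in Indian-origin PFC at 0.37.

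Microglia are the resident macrophages of the brain. Of 14 microglial genes kept, 1 was higher past 1.5-fold (LAPTM5), none was lower, 10 lay above and 4 below the table's median, and the list median was 0.27. P2RY12, a purinergic receptor of resting microglia, had 19.2 FPKM in Chinese-origin and 11.5 FPKM in Indian-origin PFC, within 1.5-fold at 0.54. CX3CR1, the fractalkine receptor, had 5.996 FPKM in Chinese-origin and 3.76 FPKM in Indian-origin PFC, at 0.48. C1QC, a chain of complement C1q, had 47.0 FPKM in Chinese-origin and 38.0 FPKM in Indian-origin PFC, at 0.11. In CER and STR the list median was 0.01 and 0.08. In bulk tissue, more cells of a type and more RNA per cell cannot be told apart.

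Of 10 surface genes of T cells and macrophages kept, 4 were higher and none lower past 1.5-fold, with a median of 0.13. Among all named genes other than small RNAs, 2.05% were higher. Besides CD4 these were CD8A, CD8B and FCGR3A, all at low levels. At such levels more genes pass the fold in either direction, 20.02% under 2 FPKM and 7.94% at 2 to 5 FPKM. CD8A, a chain of the co-receptor of cytotoxic T cells, had 3.03 FPKM in Chinese-origin and 1.49 FPKM in Indian-origin PFC, at 0.83. CD8B, its partner chain, had 2.38 FPKM in Chinese-origin and 0.951 FPKM in Indian-origin PFC, at 1.12. Both stood higher in the other regions too, at 0.66 and 1.84 in CER and 1.18 and 2.82 in STR. CD3E, a chain of the T cell receptor complex, had 1.42 FPKM in Chinese-origin and 1.49 FPKM in Indian-origin PFC, at -0.26, and CD3D was under 1 FPKM in both, with 0.277 FPKM in Chinese-origin and 0.259 FPKM in Indian-origin PFC. The macrophage markers CD14 and CD163 stood at 0.06 and -0.32. The list as a whole thus held no shared direction: CD4 and CD8 were higher, CD3E and CD163 not.

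Of 23 chemokines and chemokine receptors on a list without CXCL3, 8 were kept. All 8 lay above the table's median, CXCR4 at 0.00, and CCR1 was past 1.5-fold. Of the 12 under 1 FPKM, some lay above it, such as CXCL1 at 2.11, and some below it, such as CCL13 at -0.86. The list median was 0.36, with -0.13 in CER and 0.37 in STR. CXCL14, the most abundant, had 218.5 FPKM in Chinese-origin and 176.4 FPKM in Indian-origin PFC, at 0.11. Of 22 interferon response genes, 2 were higher past 1.5-fold and none was lower, with a median of 0.12. Among all named genes other than small RNAs, 2.05% were higher. The exonuclease ISG20 stood at 0.73, with 2.27 FPKM in Chinese-origin and 1.20 FPKM in Indian-origin PFC. The GTPase GBP1 stood at 0.67, with 2.37 FPKM in Chinese-origin and 1.30 FPKM in Indian-origin PFC. With a mean under 2 FPKM, as for both, 20.02% of named genes were past the fold in either direction. The most abundant, IFI6, had 191.1 FPKM in Chinese-origin and 198.7 FPKM in Indian-origin PFC, at -0.25. Of 14 complement genes none was past 1.5-fold.

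Immediate early genes are transcribed within minutes of neuronal activity or stress. Of 21 kept, 1 was past 1.5-fold, the vessel and lymphocyte transcription factor KLF2, but 18 lay above and 3 below the table's median, and the list median was 0.31, with 0.04 in CER and 0.24 in STR. EGR1 had 56.0 FPKM in Chinese-origin and 36.1 FPKM in Indian-origin PFC, at 0.43. FOSB had 6.94 FPKM in Chinese-origin and 4.16 FPKM in Indian-origin PFC, at 0.54. NPAS4, which responds to calcium entry in neurons, had 4.76 FPKM in Chinese-origin and 3.00 FPKM in Indian-origin PFC, at 0.47. JUN and JUND, which are high without stimulation, stood at 0.02 and -0.18. EGR1, FOSB and NPAS4 were named after their values were seen.

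Most genes of vessel cells and the hemoglobin genes lay slightly above the median. Of 20 endothelial and mural genes none was past 1.5-fold, 15 lay above and 5 below the table's median, and the list median was 0.19, with 0.16 in CER and 0.25 in STR. The 3 most abundant were RGS5 of pericytes at 0.12, the glucose transporter SLC2A1 at 0.28 and the tight junction protein CLDN5 at 0.31. The hemoglobin gene HBA had 36.7 FPKM in Chinese-origin and 21.7 FPKM in Indian-origin PFC, at 0.56. HBB had 87.0 FPKM in Chinese-origin and 57.8 FPKM in Indian-origin PFC, at 0.39. HBA and HBB stood at 0.21 and 0.02 in CER and at 0.15 and 0.06 in STR. Of the other red cell genes, ALAS2 and SLC4A1 were below 1 FPKM in both origins, SLC4A1 at 0 in both. The part of residual blood in the differences of immune genes was not tested.

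Choroid plexus genes were mostly too low to compare. Of 17 genes of choroid plexus and ependyma, 4 were kept. TTR and SLC13A4, a sulfate transporter, were lower past 1.5-fold, and KL stood at 0.00. SLC13A4 had 3.31 FPKM in Chinese-origin and 6.43 FPKM in Indian-origin PFC. The most abundant member, ENPP2, which makes lysophosphatidic acid and is also made by oligodendrocytes, had 107.8 FPKM in Chinese-origin and 99.9 FPKM in Indian-origin PFC, at -0.09. Another 9 were under 1 FPKM in both origins and lay on both sides of the median. KCNJ13 had 0.554 FPKM in Chinese-origin and 0.817 FPKM in Indian-origin PFC, while CLIC6 had 0.560 FPKM in Chinese-origin and 0.398 FPKM in Indian-origin PFC. TTR was far higher in CER, with 639.7 FPKM in Chinese-origin and 2060 FPKM in Indian-origin animals. Of 12 meningeal and collagen genes, 1 was higher (COL6A1) and 2 were lower, SLC22A6, with 2.84 FPKM in Chinese-origin and 5.81 FPKM in Indian-origin PFC, and SLC6A13, a GABA transporter of the meninges, at -0.65. The part of plexus or meninges dissected with the tissue in these values was not tested.

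Neurons and glia of the cortex showed little difference. Of 19 excitatory neuron genes, 1 was past 1.5-fold, the NMDA receptor subunit GRIN2B, with 3.59 FPKM in Chinese-origin and 2.07 FPKM in Indian-origin PFC at 0.60, and the median was 0.06. CAMK2A, SLC17A7 and NRGN, the most abundant, stood at -0.03, 0.01 and 0.06. Of 24 interneuron and neuropeptide genes only NTS, neurotensin, was past 1.5-fold, at -1.72 and a level of 0.402 FPKM in Chinese-origin and 1.16 FPKM in Indian-origin PFC. The most abundant, CCK, SST and PVALB, stood at -0.01, 0.00 and -0.04, and VIP at 0.26. All 22 synaptic vesicle genes were within 1.5-fold, between -0.14 and 0.10. Of 13 astrocyte genes none was past 1.5-fold, and 3 lay above and 10 below the table's median, with a list median of -0.13. GFAP, 1 of the 3 above, had 619.5 FPKM in Chinese-origin and 475.8 FPKM in Indian-origin PFC, at 0.18. Of 20 myelin genes, ASPA, the aspartoacylase of oligodendrocytes, was higher with 38.7 FPKM in Chinese-origin and 20.1 FPKM in Indian-origin PFC at 0.75. ENPP6, of newly formed oligodendrocytes, was lower at -0.60. MBP, myelin basic protein, stood at 0.01. Of the 20 myelin genes, 6 lay above and 14 below the table's median, with a list median of -0.10.

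Receptors and channels were likewise close to the median. Among 10 glutamate receptor genes GRIN2B was the 1 past 1.5-fold, among 13 GABA-A receptor genes GABRE was, and among 28 receptors for monoamines and acetylcholine none was. Of 34 potassium channel genes, 27 lay above and 7 below the table's median, with a median of 0.07 and KCNJ6, a G protein-gated channel, past 1.5-fold at 0.62. Of 18 circadian clock genes, 15 lay above and 3 below, with none past 1.5-fold and a median of 0.09. The Purkinje cell gene PCP2 was 1 of 12 cerebellar genes and stood at 3.12, but at a low level, with 2.31 FPKM in Chinese-origin and 0.232 FPKM in Indian-origin PFC.

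Housekeeping sets lay close to the median, apart from single genes. The 28 proteasome genes lay between -0.23 and 0.10, the 22 genes of glycolysis and the citric acid cycle between -0.24 and 0.11 and the 21 heat shock and chaperone genes between -0.20 and 0.15. Of 66 cytosolic ribosomal protein genes, 1 was past 1.5-fold, a feature named RPL13A with 4126 FPKM in Chinese-origin and 6390 FPKM in Indian-origin PFC at -0.83. That feature is very short (mmul1, chr7:108941800-108941892), so the caution on short transcripts applies to it. A second feature of that name had 227.1 FPKM in Chinese-origin and 197.9 FPKM in Indian-origin PFC, at 0.00, so the value of RPL13A depends on the copy read. Of 57 nuclear genes of oxidative phosphorylation none was past 1.5-fold, and 42 lay below the table's median, at a median of -0.06. NDUFA1, a subunit of complex I, likewise had 2 features, at 0.47 and -0.78. Of the mitochondrially encoded genes kept, ND5 was lower, with 3192 FPKM in Chinese-origin and 5081 FPKM in Indian-origin PFC, at -0.87, while ND6 and ND3 stood at 0.08 and -0.21. Among 12 reference genes used to normalize PCR, ACTB stood at -0.01, while GUSB and the short RPL13A feature were the 2 past 1.5-fold, in opposite directions.

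The genes the study had chosen for carotenoid and fatty acid metabolism were all within 1.5-fold of the median in PFC, though BCO2 was past it without centring, at 0.72. Carotenoids such as lutein are taken up by lipoprotein receptors, bound by carrier proteins and cleaved by oxygenases, and elongases and desaturases make the long fatty acids of neural membranes. Of the 17 names on the list, 11 were kept, of which 5 lay above and 6 below the table's median. BCO2, the mitochondrial oxygenase that cleaves xanthophylls, had 6.74 FPKM in Chinese-origin and 4.10 FPKM in Indian-origin PFC, the furthest up at 0.52, with 0.56 in CER and 0.45 in STR. RPE65, the retinoid isomerase, had 1.76 FPKM in Chinese-origin and 2.25 FPKM in Indian-origin PFC, the furthest down at -0.56, with -1.37 in CER and -0.76 in STR. SCARB1, the scavenger receptor for lipoproteins and carotenoids, had 31.2 FPKM in Chinese-origin and 26.5 FPKM in Indian-origin PFC, at 0.04. GSTP1, which binds zeaxanthin, had 227.2 FPKM in Chinese-origin and 211.8 FPKM in Indian-origin PFC, at -0.10, and ABCA1, a lipid exporter, had 1.495 FPKM in Chinese-origin and 1.43 FPKM in Indian-origin PFC, at -0.13. The elongases ELOVL4, ELOVL5 and ELOVL2 stood at 0.12, -0.01 and -0.23, and the desaturases FADS1 and FADS2 at 0.03 and 0.02. ALDH3A2, a fatty aldehyde dehydrogenase, had 20.7 FPKM in Chinese-origin and 23.0 FPKM in Indian-origin PFC, at -0.35. STARD3, the lutein-binding protein, had 24.5 FPKM in Chinese-origin and 22.5 FPKM in Indian-origin PFC, but the comparison did not complete, and BCMO1, NPC1L1, ABCG5 and LIPC were under 1 FPKM in both origins.

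Related lipid genes showed single differences. APOD, a lipocalin of glia, had 101.0 FPKM in Chinese-origin and 138.9 FPKM in Indian-origin PFC, at -0.66, with -0.78 in CER and -0.90 in STR. Of 21 retinoid genes, TTR and CRABP2, a retinoic acid carrier at -1.11, were lower and none was higher, while RBP4, the retinol carrier, had 225.2 FPKM in Chinese-origin and 140.6 FPKM in Indian-origin PFC, within 1.5-fold at 0.48. All 20 cholesterol synthesis genes and all 17 of fatty acid synthesis and binding were within 1.5-fold. Of 24 antioxidant genes, GPX7, a peroxidase of the endoplasmic reticulum, was higher, with 2.71 FPKM in Chinese-origin and 1.43 FPKM in Indian-origin PFC. The metallothioneins MT1E and MT3, the most abundant of their family, stood at 0.16 and -0.02. MT2A, at a locus shared by 6 genes, was higher at 0.61 in PFC and stood at -0.91 in CER. MT1B, at the same locus, went the other way in PFC, with 1.99 FPKM in Chinese-origin and 6.26 FPKM in Indian-origin animals, at -1.85. MT1B was also lower past 1.5-fold in CER and STR, at -1.42 and -1.58. Reads of this locus may be divided between its genes, so the values of MT2A and MT1B are uncertain.

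**Figure D5:**
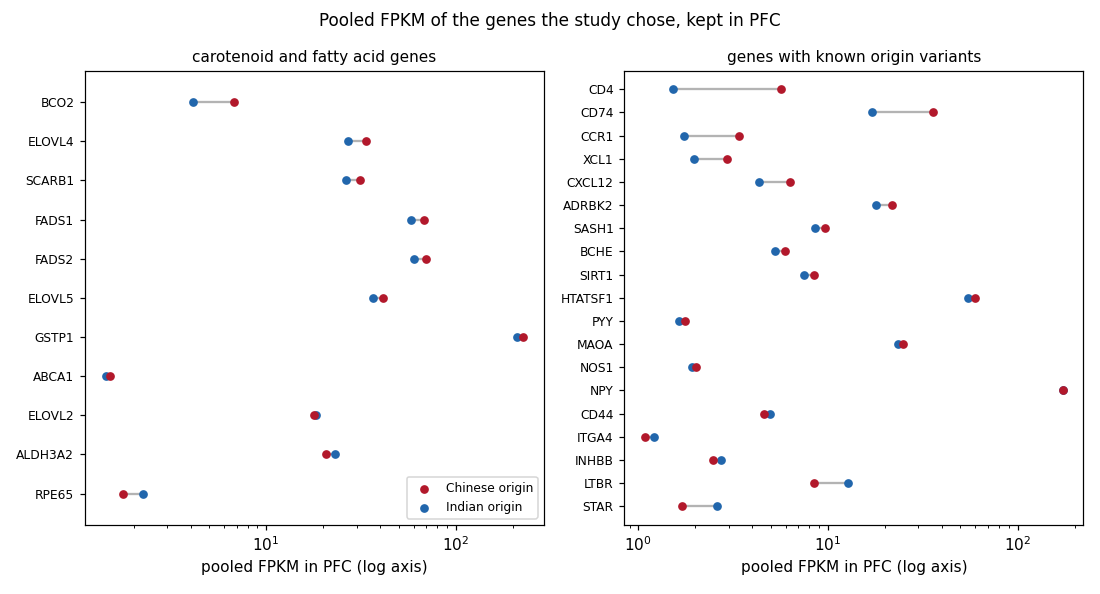
Pooled FPKM in PFC (log axis) of the kept genes that the study had chosen, carotenoid and fatty acid genes on the left and genes with known variants between origins on the right, ordered by centred log2 ratio. Red points are Chinese origin and blue points Indian origin. CD4 has the longest line on the right, with 5.64 FPKM in Chinese origin and 1.53 FPKM in Indian origin, and the points of NPY coincide.

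Among genes with known variants between the origins, 19 of 26 were kept, of which 3 were higher and 2 lower past 1.5-fold. The shares among all named genes other than small RNAs were 2.05% and 2.02%. For named genes at 2 to 5 FPKM, the level of CCR1 and STAR, 7.94% were past the fold in either direction. The higher ones were CD4, CD74 and CCR1, a receptor for inflammatory chemokines, which had 3.40 FPKM in Chinese-origin and 1.75 FPKM in Indian-origin PFC, at 0.77. The lower ones were LTBR and STAR. LTBR, the lymphotoxin beta receptor, had 8.42 FPKM in Chinese-origin and 12.7 FPKM in Indian-origin PFC, at -0.79, in the same direction as its ligand LTB. STAR, which moves cholesterol into mitochondria for steroid synthesis, had 1.70 FPKM in Chinese-origin and 2.59 FPKM in Indian-origin PFC, at -0.81. Both stood closer to the median elsewhere, LTBR at -0.46 in CER and -0.39 in STR, and STAR at -0.49 in CER and -0.37 in STR. The chemokines XCL1 and CXCL12 stood at 0.39 and 0.35 in PFC. The neural genes of the list lay nearer the median: the kinase gene ADRBK2 at 0.07, the cholinesterase BCHE at -0.02, monoamine oxidase MAOA at -0.11, NOS1 at -0.12 and the peptides PYY and NPY at -0.08 and -0.20. SASH1, SIRT1 and HTATSF1 stood at -0.02, -0.02 and -0.06. The adhesion genes CD44 and ITGA4 stood at -0.30 and -0.34 and the inhibin subunit INHBB at -0.35. CCL5, CCR4, IL2RA, TLR5, FAS, SLC5A7 and SLC6A4 were under 1 FPKM in both origins.

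Primers used for RT-PCR of 4 of these genes are shown 5′ to 3′, because they mark which transcripts that method reads. The genes are CD4 (mmul1, chr11:6967963-7001757), CD74 (chr6:146878525-146887972), CCR1 (chr2:90321466-90327387) and LTBR (chr11:6408190-6626375). Positions are those of the table's locus, which for LTBR can take in neighboring genes. The PCR values were not analysed here.
CD4 forward: gaggtggaattgctggtgtt
CD4 reverse: agctgaggcacagagatggt
CD74 forward: ccaagtatggcaacatgacg
CD74 reverse: gcatccagctctcaaagacc
CCR1 forward: tttggtgtcatcaccagcat
CCR1 reverse: gagcctgaaacagcttccac
LTBR forward: tggcattctttctgctcctt
LTBR reverse: gggtagcaatggctctacca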

How the data were processed

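RNA of PFC, CER and STR was made into TruSeq libraries and read single-end over 50 bases. Per the labels and the study's methods, read quality was examined with FastQC, alignment to the mmul1 genome used TopHat for Illumina 1.5.0, and Cuffdiff (0.0.5 in the labels) pooled the 3 animals of an origin. Each deposited table holds 1 FPKM per gene and origin, made by the authors with no values per animal. Its columns of log2 fold change, test statistic, p-value, q-value and significance were not used.

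A symbol was given by the PFC table for 22265 genes. The reference supplied 749 further names by identifier, and 27 symbols that read as dates were dropped. Ratios were taken without a pseudocount. The PFC genes of status OK numbered 16579, and 801 kept genes listed at 0 in 1 origin (391 in Chinese, 410 in Indian) have no ratio. Where a symbol had several loci, its most abundant was used in lists. No test was possible on pooled values, and p-values across genes were not computed. The counting step was tested on simulated data.

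Named genes were the 25 highest and 25 lowest centred log2 ratios with 5 FPKM or more in at least 1 origin and above 0 in both, here without small RNAs, all genes the study chose, and for each other list members past 1.5-fold and up to 3 of the highest mean FPKM. A few more were chosen after their values were seen: P2RY12, CX3CR1, CCL13, CXCL1, VIP, CD3 and macrophage markers, immediate early genes, hemoglobins, choroid plexus markers and MAMU-DPB1. The genes, the lists and the comparison were chosen with earlier results of these data known. Alternatives were other centrings, a fold of 2, pseudocounts of 0.1 and 1, minima of 5 and 0.1 FPKM, all status values, summed loci, and, added after the data were seen, named genes alone, unshared loci and genes at 0. Some genes are not reported here. Python 3.11.15, numpy 2.4.6, pandas 2.3.3 and matplotlib 3.10.9 were used.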

Additional observations from a re-analysis of the deposited data

How the results depend on the processing

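All values rest on 1 pooled FPKM per origin, so the spread between animals is unknown. No paired analysis was possible because the animals of an origin are pooled in 1 column, and leaving out an animal could not be run. The centring mattered most. Without it, 926 genes were higher, and 58 list members instead of 23. Scaling by the ratio of summed FPKM, a sum that includes genes without a symbol of up to 1497770 FPKM in Indian origin, subtracted -1.20 in place of 0.20, so that 14048 genes were higher and 65 lower, with 705 and 2 list members. Under it the centred log2 ratios of these genes and of the choroid plexus list turned positive: DNASE1L2 0.051, BSPH1 0.087, BTNL3 0.10, CARTPT 0.14, SLC22A6 0.16, BTG4 0.16, GNA11 0.16, SLC22A18 0.18, PHYHD1 0.21, SLC13A4 0.24, AKR1B10 0.30, LTB 0.30, GAL 0.34, DBF4B 0.37, LTBR 0.60, STAR 0.58 and the list median 0.77. A fold of 2 left 215 higher and 286 lower genes and 5 and 7 list members. A pseudocount of 0.1 gave 873 higher and 953 lower, since genes at 0 then have a ratio, and a pseudocount of 1 left 10 list members higher. A minimum of 5 FPKM left 221 higher and 325 lower genes and 10 and 9 list members. Chosen after seeing the data, genes with a symbol alone gave 234 higher and 232 lower, and genes at 0 counted as different gave 907 higher and 970 lower. In all, 21 all-gene and list-total results and 150 counts of single lists moved and 44 and 1026 did not, and of the named genes 66 values moved, 16 turned and 905 did neither, some of them under settings that cannot change a gene's value.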

Other observations

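Several genes known from salivary glands were listed higher in Indian-origin PFC. They were looked at after BPIFA2 was seen, with 0.228 FPKM in Chinese-origin and 29.4 FPKM in Indian-origin PFC. PIP, a secreted prolactin-induced protein, was listed at 0 in Chinese-origin and at 3.07 FPKM in Indian-origin PFC, and SPINT3, a protease inhibitor, at 0 in Chinese-origin and at 1.52 FPKM in Indian-origin PFC. CA6, the secreted carbonic anhydrase, had 0.158 FPKM in Chinese-origin and 1.80 FPKM in Indian-origin PFC, with 0.636 FPKM in Chinese-origin and 1.88 FPKM in Indian-origin STR. MUC7, a salivary mucin, was listed at 0 in Chinese-origin and at 0.249 FPKM in Indian-origin PFC, and LPO, lactoperoxidase, had 0.303 FPKM in Chinese-origin and 0.298 FPKM in Indian-origin PFC. KLK1, a glandular kallikrein, had 4.15 FPKM in Chinese-origin and 3.20 FPKM in Indian-origin PFC. ZG16B had 3.90 FPKM in Chinese-origin and 2.38 FPKM in Indian-origin PFC, so the direction was not shared by all. BPIFB1 and AZGP1 were under 1 FPKM in both origins and listed higher in Indian-origin PFC. BPIFA2, PIP, SPINT3 and MUC7 were listed at 0 for both origins in CER and STR. Which animal carried these transcripts was not tested, because the values are pooled.

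Peptides of the hypothalamus were looked at after PMCH was seen. OXT, the oxytocin precursor, had 0.382 FPKM in Chinese-origin and 2.10 FPKM in Indian-origin PFC. HCRT, the orexin precursor, had 1.15 FPKM in Chinese-origin and 2.26 FPKM in Indian-origin PFC, at a locus shared by 11 genes. In STR the centred log2 ratio was 0.41 for OXT and -0.17 for HCRT. TH, the rate-limiting enzyme of catecholamine synthesis, had 1.25 FPKM in Chinese-origin and 2.71 FPKM in Indian-origin PFC. POMC, the precursor of ACTH and melanocortins, went the other way, with 1.98 FPKM in Chinese-origin and 0.429 FPKM in Indian-origin PFC. Its centred log2 ratio was 2.01 there, 1.40 in CER and 1.66 in STR. AGRP, another hypothalamic peptide, was listed at 0 in both origins.

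Of the named genes other than small RNAs, 12 were listed at 0 in 1 origin. HAR1A, a noncoding RNA of the developing cortex, had 8.38 FPKM in Chinese-origin PFC and was listed at 0 in Indian-origin PFC and for both origins in CER and STR. It was read from a short feature (mmul1, chr10:1280718-1280849), so its values carry the caution on short transcripts. HMGA2, a chromatin protein of dividing cells, had 3.33 FPKM in Chinese-origin PFC and was listed at 0 in Indian-origin PFC, while in CER and STR it was at 0 in Chinese origin and at 0.834 and 0.847 FPKM in Indian origin.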
